A study of Homo sapiens with 12 samples.

Results

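The genes of the cytosolic ribosomal proteins, the protein parts of the ribosome that translates nuclear mRNAs, were followed in SKBR-3 cells through a kinase inhibitor, lapatinib, and a knockdown of the transcription factor FOXA1. Members were taken by symbol (RPL or RPS with a number and, in some, a closing A, X or L, plus RPLP0, RPLP1, RPLP2 and RPSA) and had to have at least 10 counts in each library. Of the 20531 genes listed, 81 symbols matched and 79 passed: 47 of the large subunit and 32 of the small. The other 2 symbols were RPL10L, a copy of RPL10 listed at 0 in all libraries, and RPL3L, a muscle relative of RPL3 with 8 to 44 counts. RPS27L, RPL39L and RPS28 had the lowest mean counts of the members that passed. The 79 thus passed on values in every group.

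SKBR-3 is an established human breast cancer line with amplified ERBB2 (HER2) and no estrogen receptor. Polyadenylated RNA was sequenced from 12 samples in 4 groups of 3. Cells were given a non-targeting (NT) siRNA pool or a FOXA1 siRNA pool, labelled as 48 h. They also had DMSO or 300 nM lapatinib, an inhibitor of the HER2 and EGFR kinases, for 24 h. The study's methods give 24 h in siRNA before the drug, so the labelled 48 h may include the 24 h with drug. All groups carry an siRNA pool, the DMSO cells included, and 1 FOXA1 pool was used, so that effects of the pool other than the loss of FOXA1 cannot be told apart from it. The labels do not say whether replicates came from separate cultures, so p-values measure the spread between these samples, which may be technical.

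Libraries held 25749578 to 32271850 expected counts, the estimated number of reads per gene. FOXA1 normalised counts were 8420.0, 8401 and 8750.0 with NT siRNA in DMSO and 1165, 1370.1 and 1571 with FOXA1 siRNA, and 12644, 12022 and 13107 against 1641, 1892 and 2376 in lapatinib, so the knockdown was present in every library (log2 change -2.63 and -2.69). ERBB2, GRB7, EPCAM and the keratins KRT8, KRT18 and KRT19 each had at least 4189 counts in every library, whereas ESR1 had 12 to 42 and PGR 0 to 1. Replicate 2 of each group stood apart from the other two, with a chi-square per degree of freedom of 12.7 to 18.5 in pairs that held it and 3.75 to 5.94 between replicates 1 and 3. Counts of members are therefore also given without replicate 2 in any group, a choice made after the libraries were seen. Of markers of other cell types, PTPRC, CD3E, PECAM1 and COL3A1 had at most 9 counts, ACTA2 18 to 94 and COL1A1 240 to 546.

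A ribosome needs about one copy of each of its proteins, and their genes are spread over many chromosomes. Most of their mRNAs begin with a C followed by an unbroken run of pyrimidines, the terminal oligopyrimidine (TOP) tract, through which mTORC1 and the RNA-binding protein LARP1 set how well they are translated and how long they are kept. HER2 signals to mTORC1 through PI3K and AKT. Large-subunit proteins line the peptide exit tunnel and form the P stalk that recruits elongation factors, and small-subunit proteins line the mRNA channel.

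The starts of the genes on which the results turn were read from RefSeq (GRCh38.p14), in windows of 30 bases with 15 upstream and the first 15 of the transcript. Where RefSeq lists several starts, 1 with a tract is shown if there is one, and otherwise the first listed. Capitals mark the TOP tract, defined as a C at the start followed by at least 4 pyrimidines. RPS27 and its relative RPS27L stand first because they moved apart after FOXA1 siRNA.
RPS27: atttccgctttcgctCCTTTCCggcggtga
RPS27L: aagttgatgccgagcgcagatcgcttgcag
The windows lie at chr1:153990747-153990776 (plus strand) and chr15:63157463-63157492 (minus strand). The tract of RPS27 is 7 bases long, and the RPS27L window holds none at its start. The next 4 genes were among the 5 largest rises after lapatinib with NT siRNA.
RPLP1: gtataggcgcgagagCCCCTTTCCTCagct
RPS21: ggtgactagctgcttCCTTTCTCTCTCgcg
RPL15: ggcgctggggcctgctggaggagcttcacg
RPL10: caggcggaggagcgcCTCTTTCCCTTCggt
They lie at chr15:69452803-69452832 (plus strand), chr20:62387088-62387117 (plus strand), chr3:23916530-23916559 (plus strand) and chrX:154398362-154398391 (plus strand). RPLP1, RPS21 and RPL10 start with tracts of 11 or 12 bases. None of the 3 RefSeq starts of RPL15 has one. The next 3 fell after lapatinib.
RPS26: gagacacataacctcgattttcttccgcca
RPL35: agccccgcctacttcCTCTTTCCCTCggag
RPL36: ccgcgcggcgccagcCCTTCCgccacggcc
They lie at chr12:56041903-56041932 (plus strand), chr9:124861943-124861972 (minus strand) and chr19:5690280-5690309 (plus strand). RPL35 and RPL36 start with tracts of 11 and 6 bases, and RPS26 with none. The last 4 are 3 small-subunit genes that fell after FOXA1 siRNA, and RPL19, the most abundant member.
RPSA: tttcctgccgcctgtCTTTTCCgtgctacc
RPS3: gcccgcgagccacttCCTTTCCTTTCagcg
RPS19: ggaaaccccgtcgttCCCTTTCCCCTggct
RPL19: tgggctctccccttcgcagataatgggagg
They lie at chr3:39406705-39406734 (plus strand), chr11:75399503-75399532 (plus strand), chr19:41860240-41860269 (plus strand) and chr17:39200268-39200297 (plus strand). The small-subunit genes begin with tracts of 7, 11 and 11 bases, and neither RefSeq start of RPL19 has one by this definition. In the RPL19 window shown, a run of pyrimidines ends just before the annotated start. Whether transcripts begin within that run was not tested.

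Of the 79 members, 63 had an entry in the table of promoters (250 bases before to 50 after each start), and 46 of these (73.0%) had a TOP tract at an annotated start, against 5.14% of the 27305 genes in the table. Other letters were searched on both strands. CCGGAAG, the core bound by ETS factors, was in 23 members (36.5%) and 12.2% of all genes, and CAAGATGG, a YY1-type core, was in 4 members (6.35%) and 2.68%. The E-box CACGTG was in 4 members (6.35%) and 8.77% of all genes, and the TATA letters TATAAA in 5 (7.94%) and in 3819 of the 27305 genes. The forkhead letters GTAAACA were in 0 of 63 members and 4.19% of all genes, and GTCAACA in 2 (3.17%) and 2.83%. These matches are descriptions of the windows and not binding sites, and a window without the letters says nothing of the factor.

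The 79 genes took 5.60% to 6.27% of all counts, and 17.4% to 19.8% of the summed TPM (a level per length) of all listed genes. With NT siRNA in DMSO the median member stood at 1484 TPM, 56 members were over 1000 TPM and 51 of the 100 genes of highest TPM were members. The large and small subunit medians were 1385 and 1641 TPM.

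RPL19, a large-subunit protein that reaches across to the small subunit, was far above every other member. It had 27743, 28776 and 28431 TPM with NT siRNA in DMSO, 19.1 times the median member and 4.25 times the next, and it took 0.997% to 1.16% of all counts. The gene lies at chr17:39200283-39204732 (GRCh38.p14), 483 kb from ERBB2, the amplified gene of this line. The other 5 members on chromosome 17 stood at 919 ± 8.74 (RPL23, 834 kb from ERBB2), 2748 ± 12.0 (RPL23A), 1916 ± 27.7 (RPL26), 1148 ± 23.6 (RPL27) and 3079.9 ± 45.4 TPM (RPL38; SD, n = 3). Copy number was not analysed here.

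RPL41, the smallest ribosomal protein, RPS24, which serves in rRNA maturation, and RPL7 followed at 6666 ± 168, 6656 ± 38.1 and 6511 ± 59.0 TPM (SD, n = 3). RPL41 and RPS24 did not differ beyond their spread. At the other end RPS28, RPL39L and RPS27L had 142 ± 1.38, 83.0 ± 2.12 and 6.53 ± 0.976 TPM. RPL27A and RPS23 were next at 225 ± 2.71 and 240.5 ± 6.76 TPM, with listed lengths of 4878 and 3312 bases, by which their TPM is divided. Ribosomal protein genes have many processed pseudogenes that can share their reads, which was not tested.

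**Figure D1:**
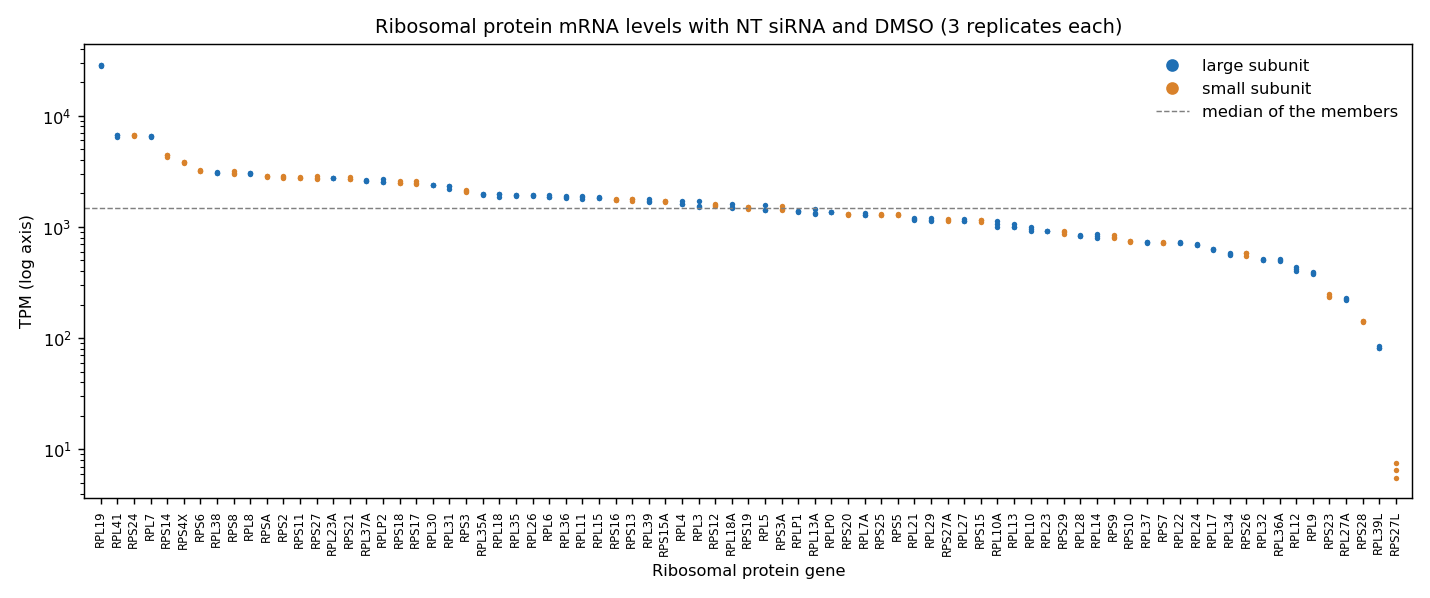
TPM of the 79 members with NT siRNA and DMSO on a log axis (3 points per gene, 1 per replicate; blue, large subunit; orange, small subunit). RPL19 sits 4.25 times above the next member, and RPS27L, at 5.58 to 7.53 TPM, below all others.

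Lapatinib was first compared with DMSO in cells with NT siRNA, to ask what the inhibitor did to these mRNAs. Most members were modestly higher and few fell. At an adjusted p under 0.05 (edgeR quasi-likelihood test, Benjamini-Hochberg adjustment over all genes tested, 3 against 3 samples) 44 of 79 were higher (55.7%), where 30.5% of all 13713 genes tested were, and 4 were lower (5.06%), where 29.2% of all genes were. The median change was 0.14 on the log2 scale, against 0.03 for all genes, and no member called changed by log2 1 or more. Scaling by total counts gave 0.10 for the members and -0.01 for all genes. Between samples of the same number, the members' median difference was 0.06, 0.11 and 0.13 for replicates 1, 2 and 3. The count rested most on replicate 3 of NT siRNA with DMSO, without which 25 were higher. Members had a median of 14813 counts and a median SE of 0.04, against 753 and 0.10 for all genes tested. Small changes therefore pass more readily in members, and the shares called are not like for like. Without replicate 2 in any group 43 were higher and 6 lower, where 33.5% and 34.1% of all genes were.

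The members' share of counts was 5.80%, 5.77% and 5.74% with NT siRNA in DMSO and 6.15%, 6.25% and 6.27% in lapatinib. FOXA1 siRNA cells had 5.60%, 5.65% and 5.70% in DMSO and between 5.90% and 6.21% in lapatinib. At these depths the 95% Wilson interval ran from 5.59% to 5.60% in the lowest library and from 6.26% to 6.28% in the highest, for counting error only. With either siRNA the lapatinib libraries did not overlap those in DMSO. The ratio of large to small subunit counts was 1.88 to 1.92 with NT siRNA and DMSO, 1.91 to 1.92 with lapatinib, and 1.98 to 1.99 and 1.96 to 1.97 with FOXA1 siRNA. Part of that difference is RPL19. In DMSO this large-subunit gene alone took a mean of 1.01% of counts with NT siRNA and 1.07% with FOXA1 siRNA. The whole large subunit took 3.78% and 3.75%.

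**Figure D2:**
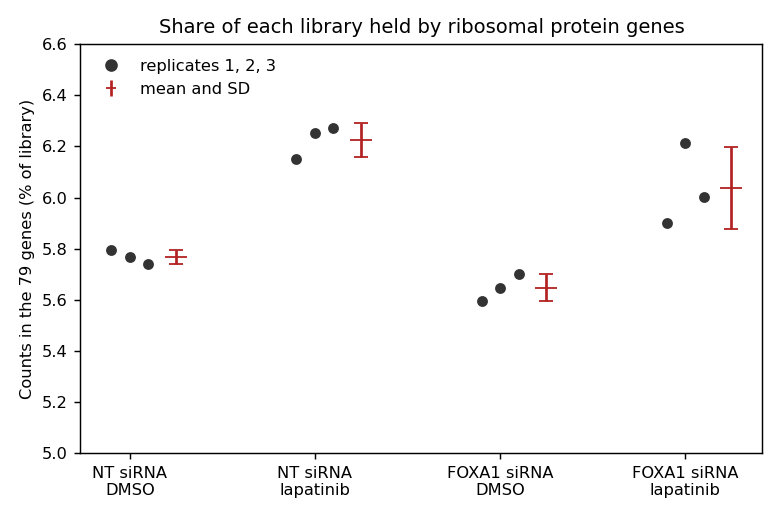
Share of each library's counts held by the 79 members, in percent (black points, replicates; red, mean and SD; the axis starts at 5%). The lapatinib libraries lie at 5.90% to 6.27%, above the DMSO libraries at 5.60% to 5.80%.

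Of the 3 P stalk genes 2 rose (66.7%), where 30.5% of all genes tested did. RPLP1, a stalk protein that binds elongation factors, had 8523, 8341 and 8215 normalised counts in DMSO and 10612, 10586 and 10272 in lapatinib (counts scaled over all 12 libraries). The groups did not overlap, and its log2 change of 0.36 ± 0.04 (SE) was the largest rise of the 79 (edgeR adjusted p = 0.000158). RPLP0, the stalk base, rose from 25591, 24744 and 24936 to 29147, 28140.1 and 29531 (log2 0.24, edgeR adjusted p = 0.00126). RPLP2, the partner of RPLP1, had 16191, 16558 and 15644 and 16525, 17454 and 16150.4, which overlap, and did not pass (log2 0.08 ± 0.05, edgeR adjusted p = 0.164).

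In the large subunit 26 of 47 rose (55.3%), where 30.5% of all genes tested did. Members had more counts than most genes, so the shares by subunit are not like for like with that of all genes. RPL15, which sits in the core of the subunit, had 58187, 57455 and 56385 normalised counts in DMSO and 70449.8, 66708 and 69959 in lapatinib (log2 0.30 ± 0.04, edgeR adjusted p = 0.000334). RPL10, one of the last proteins to join the subunit, had 19207, 19591 and 19124 and 23015, 23246 and 23640.4 (log2 0.30 ± 0.04, edgeR adjusted p = 0.000257). Neither gene's groups overlapped. RPL13A, known also as part of a complex that represses translation after interferon, rose by log2 0.29, RPL3, at the peptidyl transferase centre, by 0.26 and RPL22 by 0.20. RPL5 and RPL11 form a particle with 5S rRNA that can bind MDM2. RPL5 rose by log2 0.14 (edgeR adjusted p = 0.0303) and passed in 2 of the 6 fits that left out 1 library, and RPL11 stood at 0.12 ± 0.05 and did not pass. RPL41 and the tunnel protein RPL23A stood at 0.09 ± 0.04 and 0.07 ± 0.04 and did not pass.

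In the small subunit 18 of 32 rose (56.25%), where 30.5% of all genes tested did. RPS27, a zinc finger protein, had 12673, 11919 and 12886 normalised counts in DMSO and 15092, 14740.3 and 16094 in lapatinib (log2 0.33 ± 0.05, edgeR adjusted p = 0.000794). RPS21 had 13235, 13370.3 and 13060.4 and 16332, 16472 and 15877 (log2 0.33 ± 0.04, edgeR adjusted p = 0.000212). Both sets of libraries were apart. RPS6, the substrate of the S6 kinases, rose by log2 0.14 and RPS4X by 0.20. RPS27A, made as a fusion with ubiquitin, rose by 0.12 (edgeR adjusted p = 0.0487) and passed in 1 of the 6 fits without a library. RPS3 and RPSA, both at the mRNA channel or its exit side, and RPS19, which is mutated in Diamond-Blackfan anaemia, stood at 0.02 ± 0.04, 0.09 ± 0.04 and 0.08 ± 0.04 and did not pass. The libraries of all 3 overlapped between the groups.

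The 4 members that fell were RPL39L, RPS26, RPL35 and RPL36, and each passed in all 6 fits that left out a library. RPL39L, a relative of the tunnel protein RPL39 known from testis, fell from 892, 828 and 838 normalised counts to 502, 572 and 511. Its log2 change of -0.66 ± 0.08 (95% interval -0.81 to -0.50), a fold of 0.635, was the largest in size of the 79 (edgeR adjusted p = 0.000169). RPL39 itself went the other way, from 9029, 9277 and 9179 to 10172, 10519.5 and 9819 (log2 0.18 ± 0.05, edgeR adjusted p = 0.00802). RPS26, at the mRNA exit channel, fell from 5850.0, 5324 and 5795 to 4376, 4164 and 4512 (log2 -0.34 ± 0.06, edgeR adjusted p = 0.000908), RPL35, at the tunnel exit, by log2 0.27 and RPL36 by 0.20.

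Among the 46 members with a TOP tract at a RefSeq start, 29 were higher and 2 lower, with a median log2 change of 0.14. Of the 17 without one, 7 were higher and 1 lower (median 0.11), and of the 16 with no entry, 8 were higher and 1 lower (median 0.12). Of all genes tested, 30.5% were higher and 29.2% lower, mostly at fewer counts per gene. A tract was counted only where its C stood at the exact annotated start, so a start annotated a few bases off would hide a tract. The counts by class are a description, and the difference between the classes was not tested.

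With FOXA1 siRNA the same comparison of lapatinib and DMSO used other samples throughout. Samples of one replicate number deviated together across groups, however, so it is not a fully independent repeat. Here 52 of 79 members were higher (65.8%), where 29.0% of all 13745 genes tested were, and 3 were lower (3.80%), where 29.1% of all genes were (same edgeR test). The median change was 0.14, against 0.01 for all genes. Without replicate 2 in any group 48 were higher and 4 lower, where 30.1% and 30.7% of all genes were. Both lists of higher members shared 42 genes, 95.5% of the NT list and 80.8% of the FOXA1 list, and RPL39L, RPS26 and RPL35 were lower in both. Across the 79 genes the changes had a Pearson r of 0.929 and a Spearman rho of 0.851, given as a description because genes are not independent replicates.

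RPL12, which joins the stalk base, had 3717, 3669 and 3749.8 normalised counts with FOXA1 siRNA in DMSO and 4674, 4663 and 4991 in lapatinib, the largest rise here (log2 0.38 ± 0.04, edgeR adjusted p = 0.000165). With NT siRNA it had 4049.9, 3813 and 3666 and 4378, 4189 and 4495 (log2 0.21 ± 0.06, edgeR adjusted p = 0.0105). Both pairs of groups were apart. RPS27, RPS21 and RPL10 rose by log2 0.31, 0.28 and 0.27. RPL10A, of the stalk on the side of the subunit where tRNAs leave, rose by 0.25. RPL41 and RPL23A rose by 0.14 and 0.15. RPL39L fell from 688, 727 and 699.9 to 507, 565 and 516 (log2 -0.40 ± 0.07, edgeR adjusted p = 0.00148), without overlap. RPS26 and RPL35 fell by 0.26 and 0.18, and RPL36 stood at -0.07 ± 0.04 and did not pass. The difference between the 2 responses of RPL36 did not pass either (interaction 0.14 ± 0.07, edgeR adjusted p = 0.244).

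**Figure D3:**
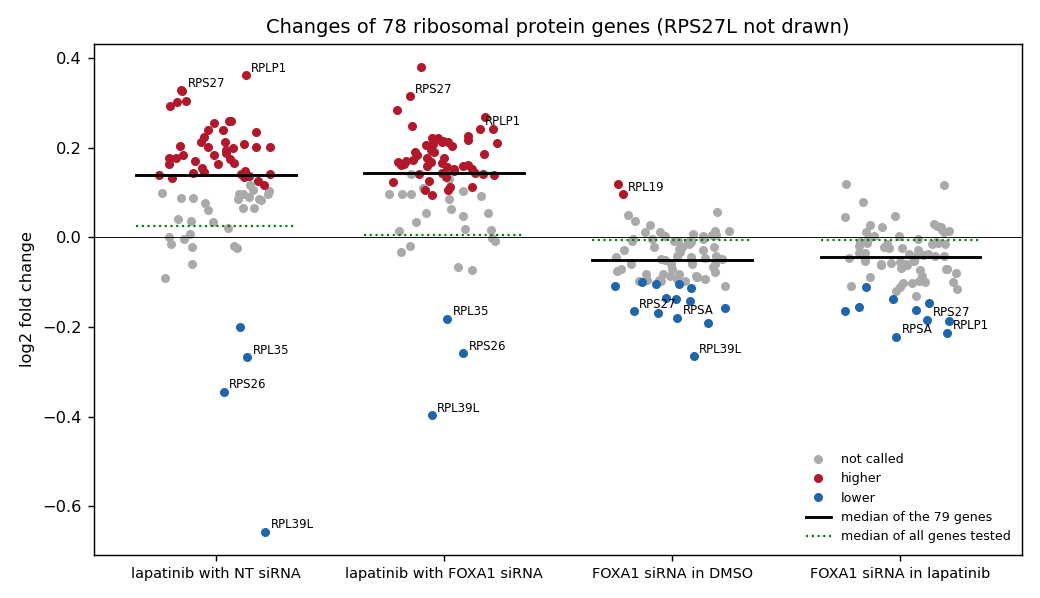
Log2 fold change of 78 members in the 4 comparisons (red, higher and blue, lower at an edgeR adjusted p under 0.05; grey, not called; black line, median of the 79 members; green dots, median of all genes tested). RPS27L is left off because its changes after FOXA1 siRNA, 2.13 and 2.01, exceed the axis. The members' median is 0.14 after lapatinib with either siRNA and -0.05 and -0.04 after FOXA1 siRNA.

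FOXA1 siRNA was compared with NT siRNA to ask what loss of the factor did on its own. In DMSO 3 of 79 members were higher (3.80%), where 21.9% of all 13694 genes tested were (same edgeR test). By that test 14 were lower (17.7%), where 21.3% of all genes were, so in this unpaired fit the share lower was near that of all genes. The change was negative in 63 of the 79, where it was in 6934 of the 13694 genes. Libraries were lower without overlap for 38 of the 79 members and for 3782 of the 13694 genes. The median change was -0.05, against -0.01 for all genes. A fit with a block for replicate number gave 33 of 79 lower, a larger share than the 30.2% of all genes. In the unpaired fit the members' median SE was 0.036, against 0.089 for all genes. Small changes therefore pass more readily in members, and neither the shares called nor those without overlap are like for like. Without replicate 2 in any group 26 were lower (28.0% of all genes) and 3 higher (27.4%). The 14 became 5 without replicate 1 or 3 of NT siRNA with DMSO or replicate 1 of FOXA1 siRNA with DMSO, and 8 without either of the other two replicates of FOXA1 siRNA with DMSO. The 3 higher became 1 without those first 3 libraries or without replicate 3 of FOXA1 siRNA with DMSO, and 2 without its replicate 2.

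RPS27L, a relative of RPS27 known as a target of p53, had the largest change of the 79. It had 110.0, 122 and 91.9 normalised counts with NT siRNA and 449.5, 477 and 485 with FOXA1 siRNA in DMSO. That was a log2 change of 2.13 ± 0.12 (95% interval 1.90 to 2.36), or 4.38-fold (edgeR adjusted p = 1.44e-05), and it passed in all 6 fits that left out a library. In lapatinib it had 103, 148 and 120.4 and 516, 496 and 514, 4.04-fold higher (log2 2.01 ± 0.13, 95% interval 1.76 to 2.27, edgeR adjusted p = 1.65e-05). Lapatinib itself left it at log2 0.24 ± 0.18 with NT siRNA and 0.13 ± 0.07 with FOXA1 siRNA, and neither passed. RPS27 went the other way after FOXA1 siRNA, from 12673, 11919 and 12886 to 10766, 10778 and 11683 (log2 -0.16 ± 0.05, edgeR adjusted p = 0.0284), and passed in 2 of the 6 fits that left out a library. At its highest RPS27L, at 31.0 TPM, was still the lowest member.

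**Figure D4:**
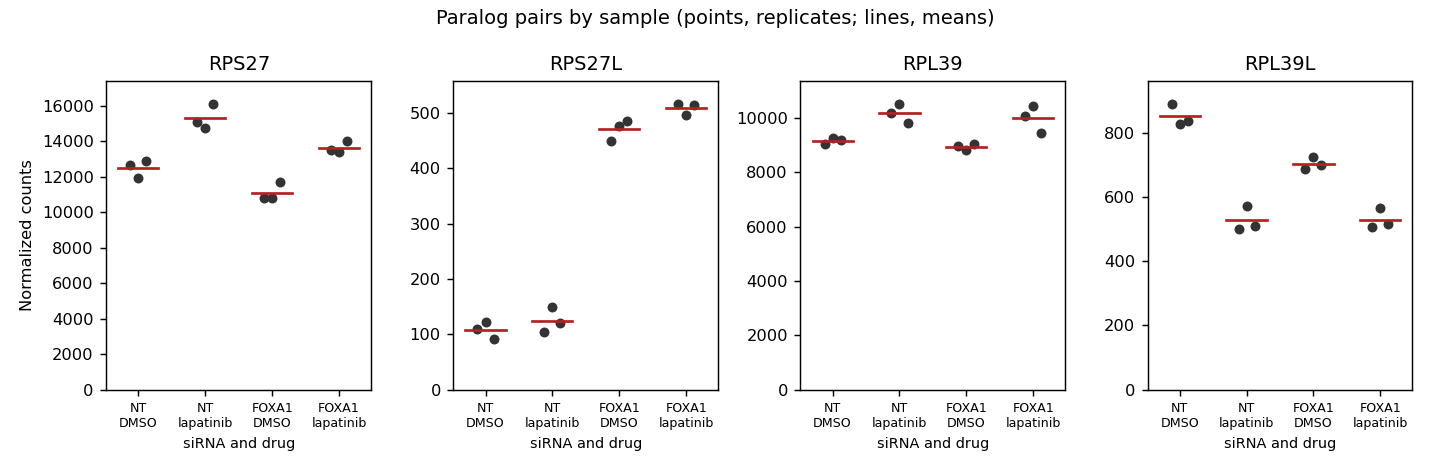
Normalised counts of RPS27, RPS27L, RPL39 and RPL39L in the 12 libraries (points, replicates; red lines, means; each panel has its own axis from 0). RPS27L lies at 91.9 to 148 with NT siRNA and 449.5 to 516 with FOXA1 siRNA, and with lapatinib RPL39L is lower and RPL39 higher.

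The 14 lower members were 8 of 32 small-subunit genes (25%) and 6 of 47 large-subunit genes (12.8%), where 21.3% of all genes were lower, and the difference between the subunits was not tested. RPS3 had 27438, 27099 and 26325 normalised counts with NT siRNA and 23273, 23707 and 23439.6 with FOXA1 siRNA (log2 -0.19 ± 0.03, edgeR adjusted p = 0.00273). RPSA, also known as the laminin receptor, had 43316, 41060.4 and 42319 and 37016, 36515 and 37659.6 (log2 -0.18 ± 0.03, edgeR adjusted p = 0.00414). Neither gene's groups overlapped. RPS19, RPS27A, RPS10, RPS29 and RPS15A, with RPS27 above, made up the rest, at -0.10 to -0.16. RPL39L fell by 0.26 and RPL28 by 0.17, and RPL35A, RPL37A, RPL6 and RPL23A fell by 0.10 to 0.13. Of the 14, RPS3, RPSA, RPS19, RPL39L and RPL28 passed in all 6 fits that left out a library, RPS29 in 0 and the others in 1 to 3. RPL19 rose by 0.10 (edgeR adjusted p = 0.0191) and RPLP2 by 0.12 (0.0334), in 2 and 1 of the 6 fits that left out a library. RPS6 stood at -0.08 ± 0.03 and RPLP0 at -0.09 ± 0.03, and neither passed (edgeR adjusted p = 0.0634 and 0.0568), whereas with the replicate block these were 0.0134 and 0.00855.

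In lapatinib 1 of 79 members, RPS27L, was higher (1.27%), where 22.7% of all 13727 genes tested were, and 10 were lower (12.7%), where 22.2% of all genes were (same edgeR test). The members' median was -0.04, against -0.01 for all genes. With the replicate block 4 were higher, where 30.6% of all genes were, and 23 lower, where 31.1% were. Without replicate 2 in any group 2 were higher and 23 lower, where 25.6% of all genes were in each direction. The 10 became 5 without replicate 3 of NT siRNA with lapatinib and 6 without replicate 1 or 3 of FOXA1 siRNA with lapatinib, and the 1 higher became 2 without replicate 2 of NT siRNA with lapatinib. Between samples of the same number, the median difference of the members was -0.03 for replicate 1, 0.02 for replicate 2 and -0.07 for replicate 3, so replicate 2 ran the other way.

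Of those 10, RPSA went from 43759, 42826 and 44989 normalised counts to 37466, 39226 and 37435 (log2 -0.22 ± 0.04, edgeR adjusted p = 0.00258) and RPLP1 from 10612, 10586 and 10272 to 8895, 9379 and 9184 (log2 -0.21 ± 0.04, edgeR adjusted p = 0.00412). Neither gene's groups overlapped. RPLP0 fell by 0.19, RPS27 by 0.18, and RPS3, RPS27A, RPL13A, RPS19, RPL28 and RPL15 by 0.11 to 0.16. RPSA, RPS3, RPS19, RPS27, RPS27A and RPL28 were lower after FOXA1 siRNA both in DMSO and in lapatinib, which is 42.9% of the 14 and 60.0% of the 10. The comparisons share no sample, but samples of one replicate number deviated together, so they are not fully independent. In lapatinib RPS3 passed in 2 of the 6 fits that left out a library, and RPL28 and RPL15 in 1. RPLP2 was at 0.12 ± 0.04 and RPL12 at 0.12 ± 0.05, and neither passed (edgeR adjusted p = 0.0565 and 0.0905), but with the replicate block these were 0.00786 and 0.00834.

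The interaction of siRNA and drug asks whether FOXA1 siRNA changed the response to lapatinib. No member passed: 0 were higher, where 3.99% of all 14012 genes tested were, and 0 lower, where 3.2% of all genes were (edgeR quasi-likelihood test over 12 samples, Benjamini-Hochberg adjusted). DESeq2 also called 0. At an unadjusted p under 0.05 there were 3 of 79 members by edgeR (RPL39L, RPL12 and RPS29, all higher) and 4 by DESeq2. Of all 14012 genes tested, 3118 were under that threshold by edgeR and 2965 by DESeq2, so members passed it less often than genes at large. RPL39L (0.27 ± 0.10, edgeR adjusted p = 0.132) and RPL12 (0.18 ± 0.07, 0.139) had the largest positive differences and RPLP1 the largest negative one (-0.11 ± 0.05, 0.247). With the replicate block RPL12 was called higher (adjusted p = 0.0467), where 11.1% of all genes were. Without replicate 2 in any group RPL39L and RPS29 were called higher (10.3% of all genes) and 0 lower (7.87%). A p that misses the threshold does not show that the responses were equal.

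Gene lists close to the ribosome gave the members a setting. Their counts are read against the shares of all genes tested, 30.5% higher and 29.2% lower after lapatinib with NT siRNA and 29.0% higher and 29.1% lower with FOXA1 siRNA. Of 19 translation factors and other genes with TOP mRNAs, 13 were higher (68.4%) and 1 lower (5.26%) after lapatinib with NT siRNA, with a median of 0.28. EIF4B, a helper of the helicase that unwinds mRNA leaders, rose by log2 0.86, the elongation factor EEF2 by 0.48 and the poly(A)-binding protein PABPC1 by 0.45, and EIF3K fell by 0.26. With FOXA1 siRNA 15 were higher (78.9%) and 1 lower (5.26%; median 0.19).

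Dedicated chaperones carry single ribosomal proteins to the nascent ribosome. Of 8 genes for them, 0 were higher and 6 lower (75%, against 29.2% of all genes) with NT siRNA (median -0.47), by edgeR and by DESeq2, and 0 of the 6 with an unadjusted p under 0.05 were positive. PDCD2L fell by 0.80, LTV1 by 0.77 and HEATR3, which serves the nuclear import of RPL5, by 0.77. With FOXA1 siRNA 0 were higher and 7 lower (87.5%, against 29.1% of all genes; median -0.35), and these were the 7 with an unadjusted p under 0.05. Of 77 genes for proteins of the mitochondrial ribosome, 4 were higher (5.19%, against 30.5% of all genes), 58 lower (75.3%, against 29.2%) and 15 not called with NT siRNA (median -0.35). With FOXA1 siRNA 3 were higher (3.90%, against 29.0%) and 57 lower (74.0%, against 29.1%; median -0.30). MRPL18, MRPL12 and MRPL4 fell by 0.88, 0.85 and 0.79 with NT siRNA, whereas MRPS18B, MRPL45 and MRPL10 rose by 0.47, 0.46 and 0.19.

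**Figure D5:**
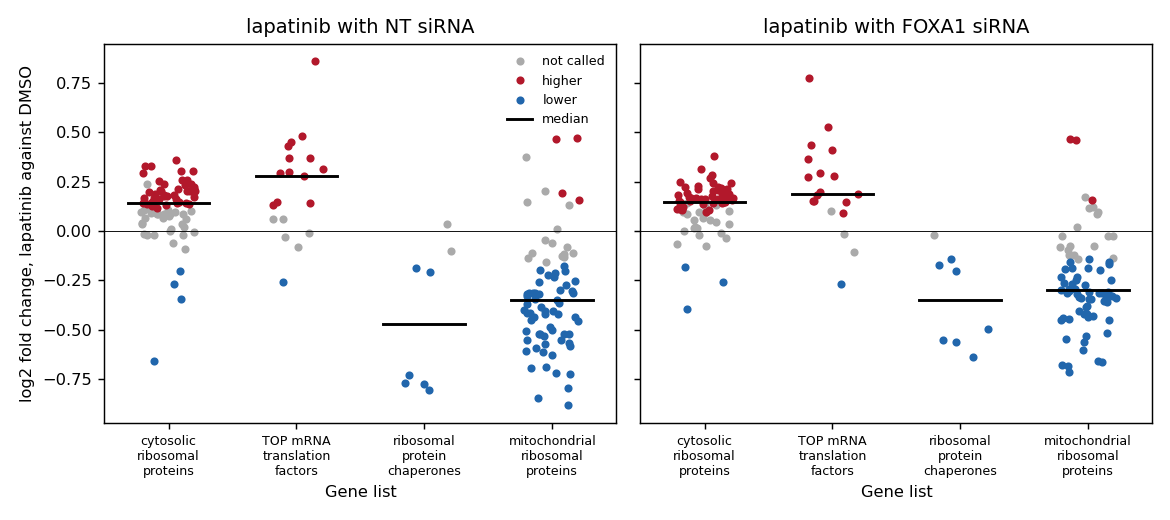
Log2 fold change after lapatinib in 4 gene lists with NT siRNA (left) and FOXA1 siRNA (right; red, higher, and blue, lower at an edgeR adjusted p under 0.05; grey, not called; black line, median). The median is 0.14 for cytosolic and -0.35 for mitochondrial ribosomal proteins with NT siRNA.

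Genes related to the members but outside the rule were called in both directions. Of 6, 1 was higher and 5 lower after lapatinib with NT siRNA (16.7% and 83.3%, against 30.5% and 29.2% of all genes). The 1 higher was GNB2L1 (RACK1), a scaffold on the small subunit, at 0.11 (edgeR adjusted p = 0.0389), which did not pass in DESeq2 (adjusted p = 0.109) and passed in 1 of the 6 fits that left out a library. RPL26L1 fell by 0.55, RPL22L1 by 0.36, RPL7L1 by 0.35, RPL36AL by 0.23 and FAU, the precursor of eS30, by 0.18. With FOXA1 siRNA 1 was higher (16.7%, against 29.0%) and 4 lower (66.7%, against 29.1%).

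Of 19 genes of the mTORC1 pathway, 4 were higher (21.1%) and 7 lower (36.8%) with NT siRNA, where 30.5% and 29.2% of all genes were (median 0.01; DEPTOR, listed under its older symbol DEPDC6, was not included). With FOXA1 siRNA 6 were higher and 6 lower (31.6% each, median -0.10), near the 29.0% and 29.1% of all genes, so nothing is read from these counts. PDCD4, an inhibitor of the helicase EIF4A, had 1508, 1708 and 1542 normalised counts in DMSO and 4841, 4605 and 5052 in lapatinib, 3.12-fold higher (edgeR adjusted p = 1.84e-06). The cap-binding protein EIF4E had 3672, 3506 and 3621 and 1837, 1702 and 1766, 0.503 times its level in DMSO (edgeR adjusted p = 3.71e-06). Both were apart in all libraries. TSC1, which restrains mTORC1, rose by 0.94 and the kinase EEF2K by 0.54, and RPS6KB2, an S6 kinase, and MTOR fell by 0.64 and 0.39.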

How the data were processed

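Per-sample tables deposited by the authors gave, per gene, expected counts (estimated reads, raw) and TPM. The study's methods give STAR alignment to hg38 and Salmon quantification, while the submitters' processing notes name RSEM with DESeq2 1.12.3 and R 3.2.2. Listed TPM summed to 896833 to 939340 per library. FPKM and upper-quartile columns were not used. The labels disagree on the library kit.

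Expected counts were rounded and tested with edgeR 4.0.16 in R 4.3.3 (TMM factors, quasi-likelihood test, genes reaching 10 counts in 1 or more samples of the fit, adjusted p under 0.05 by Benjamini-Hochberg over all genes), with 6 samples per comparison and 12 for the interaction. DESeq2 1.42.0 was an alternative. Per-sample normalised counts were scaled over 12 libraries, so the fits differ from ratios of their means by -0.02 to 0.03 (log2, median of the members). Members had a median of 14813 counts, against 753 for all genes tested with NT siRNA. The test was run on simulated data for some of the comparisons, with known changes larger than those of nearly all members. No deviation shared by replicate number was simulated, so that run does not tell how the test does at changes as small as the members'.

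Samples of one replicate number deviated together over 10809 genes (r of 0.305 to 0.714 in 18 pairs, mean 0.463). The 36 pairs of different number had r of -0.55 to 0.256 (mean -0.21). Deviations were taken from each group's mean, which itself pushes the mean of different-number pairs below 0. Over the members alone, r was -0.12 to 0.53 (mean 0.29) for the same number and -0.55 to 0.46 (mean -0.14) for different numbers. The numbers were taken as paired by the data over all genes, and a replicate block was fitted as an alternative. Replicates differed by more than sampling noise (chi-square test of counts), so none were merged.

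The members, lists and tests were chosen with earlier results of these data known. Named members were 21 fixed by role, up to 5 per direction and comparison with the largest called change, the lowest and highest by level, and called list genes. Promoters and positions are RefSeq GRCh38.p14, matched by Entrez ID. Protein sequences were not used here. A gene of the list of relatives is not reported here. Alternatives covered scaling, filters, thresholds and leaving out each sample.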

Additional observations from a re-analysis of the deposited data

How the results depend on the processing

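Of 273 alternative values for the counts and medians of members, 236 stayed within 1.5 times the count or within the spread between replicates, and 37 moved. Of 1977 alternative values for named members 1862 kept their side of the threshold, 73 lost the call and 42 gained it. In 0 did the sign change where the main or the alternative fit called the member. Changes of sign in members called in neither fit were not counted. Scaling moved the median of all genes by at most 0.04 (log2). After lapatinib with NT siRNA, an adjusted p under 0.01 left 26 members higher, and fits without 1 library gave 25 to 42 higher, 25 without replicate 3 of NT siRNA with DMSO. With FOXA1 siRNA, leaving out each library gave 43 to 55 higher, and scaling by total counts gave 5 lower and a median of 0.11. No member reached a log2 change of 1 after lapatinib (0 higher and 0 lower with either siRNA). After FOXA1 siRNA 1 was higher in DMSO and 1 in lapatinib (RPS27L in both), and 0 were lower in DMSO or lapatinib. At an adjusted p under 0.01, FOXA1 siRNA left 1 higher and 4 lower in DMSO and 1 higher and 3 lower in lapatinib. Without replicate 2 in any group, chosen after seeing the data, 26 were lower in DMSO, 2 higher and 23 lower in lapatinib, and 2 higher in the interaction. Leaving out each library gave 1 to 3 higher and 5 to 18 lower in DMSO, and 1 to 2 higher and 5 to 14 lower in lapatinib. In lapatinib, upper-quartile factors gave 2 higher and 1 model over 12 samples gave 3. The replicate block, with the numbers paired, gave 33 lower in DMSO, 4 higher and 23 lower in lapatinib, and 1 higher in the interaction, and moved no other count by over 1.5 times. The causes were not tested. Fits without a library leave 2 samples in a group. Sharing of reads with pseudogenes and copy number were not tested, and TPM depends on the listed lengths.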

Other observations

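After FOXA1 siRNA 21.9% of all genes tested were higher and 21.3% lower in DMSO, and 22.7% higher and 22.2% lower in lapatinib, and nothing is read from counts of the lists near the ribosome that lie close to these shares. Of the 77 genes for mitochondrial ribosomal proteins, 14 were higher (18.2%) and 13 lower (16.9%) in DMSO and 22 higher (28.6%) and 11 lower (14.3%) in lapatinib. MRPL41 and MRPL18 fell by 2.21 and 2.02 in DMSO. In lapatinib MRPL41 fell by 1.89 and MRPL18 fell by 1.86. MRPS35, MRPL15 and MRPS30 rose by 0.44, 0.41 and 0.36 in DMSO. Of the 19 TOP mRNA genes, 3 were higher and 3 lower in DMSO (15.8% each) and 5 higher (26.3%) and 4 lower (21.1%) in lapatinib. The chaperone BCCIP, which accompanies RPL23, had 3204, 3384 and 3156 normalised counts with NT siRNA and 2233, 2205 and 2246 with FOXA1 siRNA in DMSO (log2 -0.53 ± 0.05, edgeR adjusted p = 8.35e-05).

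In the mTORC1 list of 19 genes, 5 were higher (26.3%, against 21.9% of all genes) and 2 lower (10.5%, against 21.3%) in DMSO, and 7 higher (36.8%, against 22.7%) and 3 lower (15.8%, against 22.2%) in lapatinib. DDIT4, an inhibitor of mTORC1, had 3683, 6254 and 3319 normalised counts with NT siRNA and 9718, 12227 and 9396 with FOXA1 siRNA (log2 1.25 ± 0.23, edgeR adjusted p = 0.00324), with replicate 2 highest in both groups. PDCD4 rose by 0.94 in DMSO and 0.21 in lapatinib, and its rise with lapatinib was smaller with FOXA1 siRNA (interaction -0.71 ± 0.11, edgeR adjusted p = 0.00368). EIF4A2 had a positive interaction (0.36 ± 0.08, edgeR adjusted p = 0.0156).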
